A study of Mus musculus with 3 samples.

Results

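The genes described here encode the ephrins and their Eph receptors, the Slits and their Robo receptors, and the netrins with the Dcc and Unc5 receptors. They were taken from the gene table by symbol alone, which gave 37 of the 51826 genes listed: 9 Eph A receptors, 5 Eph B receptors, 5 ephrin A ligands, 3 ephrin B ligands, 3 Slits, 4 Robos, 3 netrins, and Dcc with 4 Unc5 receptors. RNA was sequenced from mouse spinal cord (C57BL/6) at embryonic day 13.5, with 1 library for each of 3 genotypes. WT is the wild type. The dE3 library carries Nestin-Cre with a floxed exon 3 of Ctnnb1, an allele that yields stabilised β-catenin (gain of function). The cKO library carries Nestin-Cre with a floxed segment from exon 2 to exon 6 of Ctnnb1 (loss of function). Nestin-Cre acts mainly in neural progenitors and the cells that descend from them, so the alleles should be intact in most other cells of the dissected tissue. Where the alleles were recombined was not measured. The number of embryos in a library is not stated. With 1 library for each genotype there is no spread between replicates. No p-value was therefore computed, and every interval below covers counting error only.

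Growing axons read these proteins as attractive or repulsive signals. In the embryonic spinal cord, commissural axons grow ventrally towards netrin-1, which is made by floor plate and ventricular progenitors and bound by the receptor Dcc. They cross the midline and are then kept from crossing again by Slit proteins, which act through Robo1 and Robo2, while the divergent receptor Robo3 is needed before crossing. Ephrins are bound to the membrane and act on Eph receptors of neighbouring cells, and take part in midline barriers, motor axon routing and the arrangement of blood vessels.

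Library totals ran from 32167470 to 34790053 estimated counts, and the 37 genes together took 0.358% (WT), 0.366% (dE3) and 0.363% (cKO) of all counts. All 37 genes had at least 20 counts in at least 1 library, the minimum set for a measured gene, which 18074 genes met. Epha1, with 18 counts in WT, met it through the other libraries. Levels of the same gene are compared below as CPM, counts relative to the library total after TMM scaling, and levels of different genes as TPM, the authors' measure that also divides by transcript length. A difference was called where the scaled ratio of the libraries was at least 2 in either direction and its 95% interval left out 1. Ctnnb1 itself stood at 544 CPM (WT), 461 (dE3) and 422 (cKO). A total for the whole gene also counts the exons outside the floxed parts, so it does not check either deletion. Of 15 feedback and target genes of Wnt/β-catenin signalling, 12 were called higher in dE3 against WT and 1 in cKO against WT. In both comparisons 0 were called lower, and in cKO the median log2 ratio was 0.24 and the lowest -0.21.

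In dE3 against WT, 6 of the 37 genes were called higher (Robo3, Robo4, Ephb4, Efna4, Epha1 and Ntn5) and 2 lower (Ntn1 and Epha5). Among all measured genes, 6.52% were called higher and 3.78% lower in this comparison. The members' own shares were 16.2% and 5.41%. At a lower threshold of 1.5, 8 were called higher, with Dcc and Epha2 added, and 3 lower, with Slit1 added, beside 11.4% and 8.01% of all measured genes. In cKO against WT, 1 member was called higher (Ntn5) and 0 lower, where 3.48% and 3.41% of all measured genes were called. At the threshold of 1.5 these counts were 4 (Epha2, Ephb4, Efna4 and Ntn5) and 0, beside 7.2% and 6.67%. Between the mutants, 3 members were called higher in dE3 than in cKO (Robo3, Dcc and Epha1) and 1 lower (Ntn1), with 6.62% and 4.38% of all measured genes. At 1.5, 6 were higher (with Ephb4, Efna4 and Robo4) and 5 lower (with Epha5, Epha6, Ephb1 and Slit1), beside 12.5% and 9.53%. The comparisons with WT share that library, so a count that is high or low in it enters both.

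Most of the 37 genes differed little. In dE3 against WT, 25 of the 37 log2 ratios lay within 0.5 of 0 (67.6%, against 73.3% of all measured genes). In cKO against WT, 31 did (83.8%, against 78.6%). The median log2 ratio of the 37 genes was 0.05 in dE3 and 0.08 in cKO, and the median of all measured genes was 0.00 in both. By family, the dE3 medians were -0.15 for Eph A receptors, -0.12 for Eph B receptors, 0.05 for ephrin A and 0.10 for ephrin B ligands, 0.13 for Slits, 0.59 for Robos, -0.05 for netrins and 0.31 for Dcc with the Unc5 receptors. In cKO the medians of these families lay between -0.02 (Robos) and 0.14 (Dcc and Unc5 receptors).

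**Figure D1:**
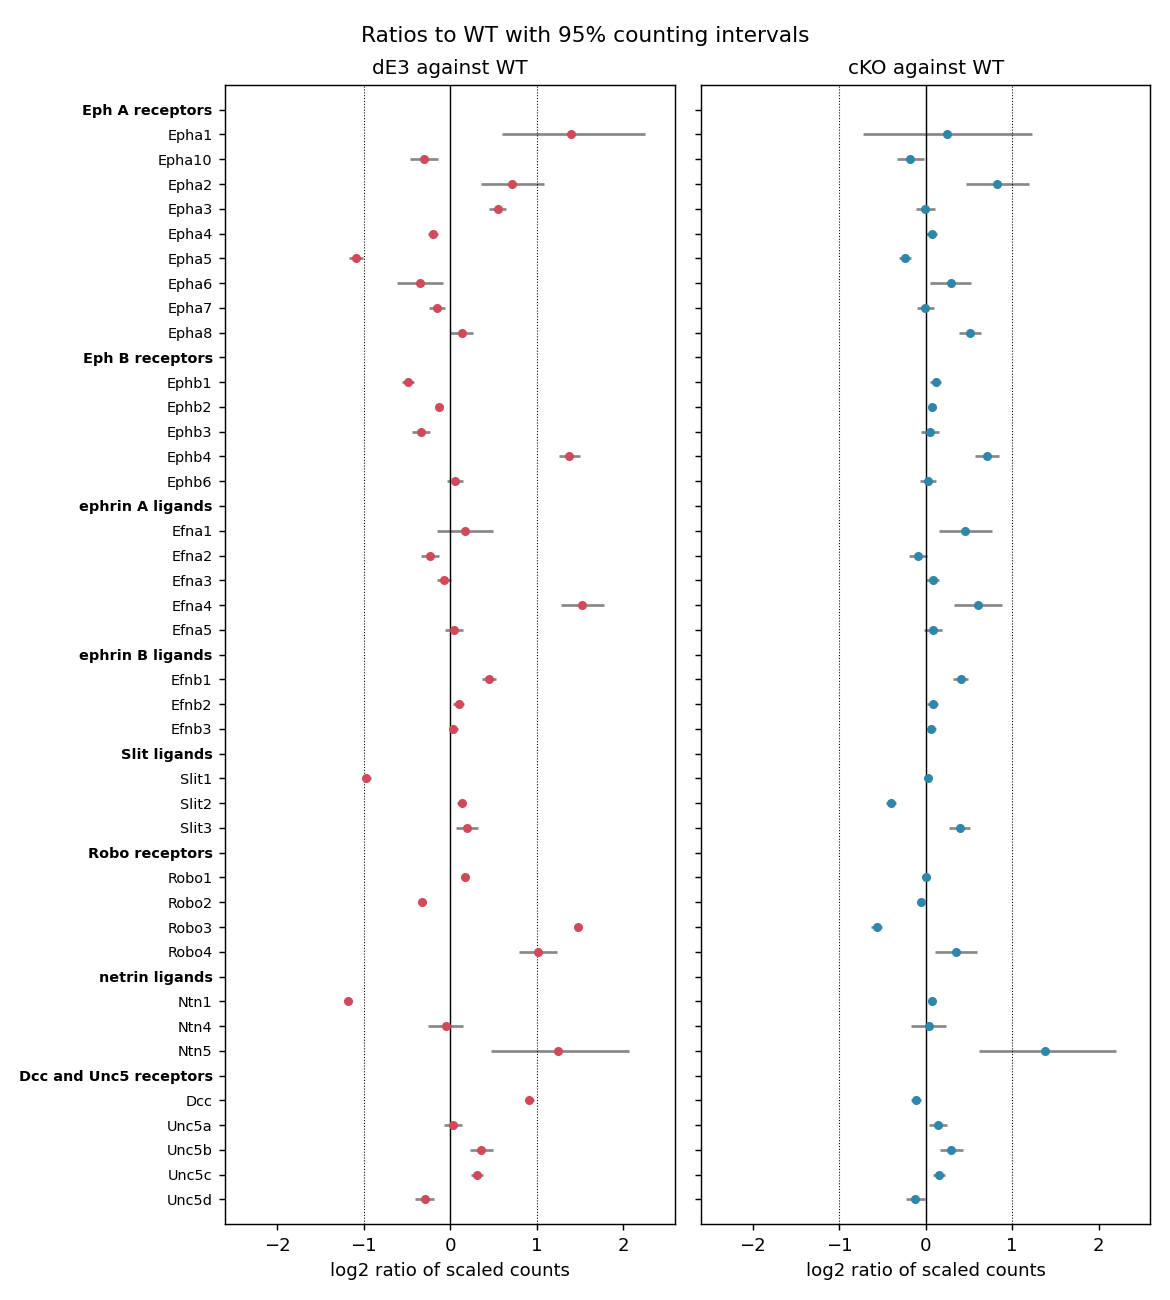
Log2 ratio of scaled counts for each of the 37 genes in dE3 against WT and cKO against WT, by family, with bars for the 95% interval of counting error. In dE3, Efna4 (1.52), Robo3 (1.48), Epha1 (1.40) and Ephb4 (1.38) lie farthest above 0, and Ntn1 (-1.18) and Epha5 (-1.08) farthest below, while most cKO points lie near 0.

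**Figure D2:**
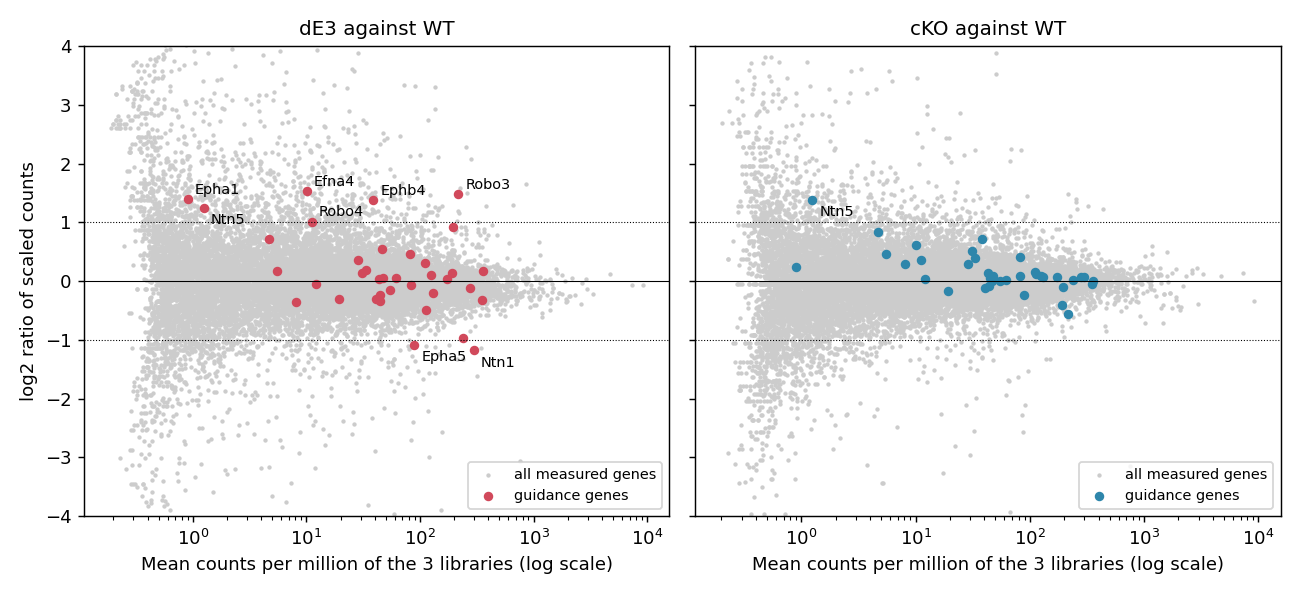
Log2 ratio against mean level for all measured genes (grey) and the 37 guidance genes (coloured, called members named), in dE3 against WT and cKO against WT. The vertical axis ends at 4 in either direction, which leaves 107 genes undrawn in dE3 and 55 in cKO, none of them a guidance gene, and Robo3 and Ntn1 are called at high levels while Epha1 and Ntn5 lie among the low genes.

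The netrins are secreted ligands. Ntn1 encodes netrin-1 (chr11:68209364-68400823, minus strand, GRCm38). It stood at 356 CPM (WT), 157 (dE3) and 375 (cKO). The dE3 library alone was low, by 2.26 times against WT (95% interval 2.19 to 2.34), and the cKO library was at 1.05 times WT (1.02 to 1.08). In TPM, Ntn1 was the most abundant of all 37 genes in WT at 169, and stood at 73.7 in dE3 and 196 in cKO. The summed TPM of the 3 netrins followed it, at 182 in WT, 84.3 in dE3 and 206 in cKO. Ntn4, a netrin of basement membranes, was level at 12.2, 11.8 and 12.5 CPM. Ntn5 had 20 counts (WT), 52 (dE3) and 54 (cKO). Both mutants were called higher, at 2.37 times (1.39 to 4.19) and 2.61 times (1.54 to 4.61) WT. Ntn5 is also the member with the largest overlap with another gene. Of its exonic bases, 23.4% lie under exons of Sec1 on the opposite strand, which had 19, 16 and 10 counts in WT, dE3 and cKO.

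The floor plate is a textbook source of Ntn1, so its markers are given beside this result. Of 6 floor plate markers, 1 was called lower in dE3 and 0 in cKO, and all 6 were detected in every library. Their summed level was 283 CPM (WT), 121 (dE3) and 306 (cKO), with a median log2 ratio of -0.48 in dE3. Most of that sum is Spon1, which encodes the secreted protein F-spondin, at 257, 102 and 276 CPM. Spon1 is also the 1 marker called lower in dE3, so that call and most of the fall in the sum come from the same gene. The log2 ratios of the 6 markers ran from -1.33 to -0.22 in dE3 and from -0.78 to 0.46 in cKO, and 2 were called lower in dE3 against cKO. In bulk tissue, fewer cells of a type and less RNA per cell cannot be told apart. Of 12 neural progenitor markers, 1 was called higher and 3 lower in dE3 and 0 in cKO, with summed levels of 1698, 1688 and 1474 CPM. The part of either cell type in the Ntn1 value was not tested.

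Dcc and the Unc5 proteins are the netrin receptors, with Dcc known for attraction and Unc5 proteins for repulsion. Dcc (chr18:71258738-72351069, minus strand) stood at 153 CPM (WT), 289 (dE3) and 142 (cKO). The dE3 library was high and the other libraries were close together. Its ratio to WT was 1.89 (1.82 to 1.95), under the threshold of 2, and its ratio to cKO was 2.03 (1.96 to 2.10), at the threshold. The cKO library was at 0.929 times WT (0.892 to 0.967). In TPM, the level of the receptor Dcc over that of its ligand Ntn1 was 0.432 in WT, 1.90 in dE3 and 0.347 in cKO, so the order of the levels was turned in dE3. Of the Unc5 receptors, 0 were called in any comparison. Unc5c stood at 99.0 CPM (WT), 122.9 (dE3) and 110 (cKO). Unc5a was level at 41.4, 42.4 and 45.7 CPM. Unc5b, also known from blood vessels, stood at 24.5, 31.4 and 30.1 CPM, and Unc5d at 44.8, 36.5 and 41.3.

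Among the Robo receptors, Robo3 differed most. Robo3 (chr9:37415669-37433246, minus strand) stood at 146 CPM (WT), 406 (dE3) and 98.3 (cKO), from 4652, 14245 and 3247 counts. The dE3 library was high, at 2.79 times WT (2.70 to 2.89). The cKO library was low, by 1.48 times against WT (1.42 to 1.55), which is under the threshold. Robo3 had the largest ratio of any member between the mutants, 4.13 (3.98 to 4.30). Robo1 and Robo2, the Slit receptors of crossed axons, were closer to level. Robo1 stood at 344, 386 and 346 CPM, and Robo2 at 382, 306 and 368. Robo3 made up 16.7% of the counts of Robo1, Robo2 and Robo3 in WT (95% Clopper-Pearson interval 16.3 to 17.1), 37.0% in dE3 (36.5 to 37.5) and 12.1% in cKO (11.7 to 12.5). In TPM, Robo2 led the family in WT at 147, and Robo3 led it in dE3 at 242. The fourth member, Robo4, is a receptor of endothelial cells. It stood at 7.76, 15.6 and 9.90 CPM, and its ratio of 2.01 in dE3 (1.73 to 2.35) lies at the threshold.

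Robo3 and Dcc are both carried by commissural neurons before crossing, and a list of 7 commissural markers, drawn up for class dI1, was measured. It holds Barhl1, Barhl2, Lhx2, Lhx9 and Pou4f1, with Evx1 and Evx2, which mark the V0 class. Pou4f1 is also expressed by other neurons, so the list does not stand for dI1 alone. Of these 7 markers, 0 were called in dE3 or cKO against WT. Their summed levels were 161 CPM (WT), 152 (dE3) and 132 (cKO), with median log2 ratios of -0.31 and -0.23. All 7 were detected in every library. Of 13 pan-neuronal genes, 0 were called in either mutant, with medians of -0.35 and 0.00. In dE3 against cKO, 1 gene of the commissural list and 1 pan-neuronal gene were called lower and 0 higher. The summed level of 10 roof plate and dorsal progenitor markers was 92.1 (WT), 214 (dE3) and 71.2 (cKO) CPM. Their log2 ratios ran from -2.06 to 2.04 in dE3 against WT. Of these, 4 were called higher (Msx1, Msx2, Msx3 and Pax3) and 2 lower (Pax7 and Wnt1) in dE3 against WT, and 1 lower (Msx3) in cKO against WT. The part of these cells in the Robo3 and Dcc values was not tested. No commissural class was analysed by itself here.

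Slits are the secreted ligands of Robo1 and Robo2. Slit1 (chr19:41600257-41743665, minus strand) stood at 284 CPM (WT), 145 (dE3) and 288 (cKO). The dE3 library was low, by 1.96 times against WT (1.89 to 2.03), just under the threshold. Against cKO, dE3 was lower by 1.99 times (1.92 to 2.06), also just under it. Slit2 stood at 202, 222 and 153 CPM, with the cKO library lowest, by 1.32 times against WT (1.27 to 1.37). Slit3 was the least abundant, at 28.9, 33.1 and 38.0 CPM. Slit1 made up 55.1% of the counts of the 3 Slits in WT (54.4 to 55.9), 36.3% in dE3 (35.5 to 37.1) and 60.1% in cKO (59.4 to 60.9). In TPM, Slit1 led in WT (136 against 81.2 for Slit2) and in cKO (133 against 66.0), and Slit2 led in dE3 (83.7 against 68.4). Motor neurons also make Slits. Of 10 motor neuron markers, 0 were called in either mutant, with summed levels of 424, 361 and 553 CPM. Their log2 ratios ran from -0.84 to 0.43 in dE3 (median -0.51) and from -0.95 to 0.88 in cKO (median 0.20). In dE3 against cKO, 1 was called higher and 3 lower, with a median of -0.78. The part of motor neurons in the Slit values was not tested.

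**Figure D3:**
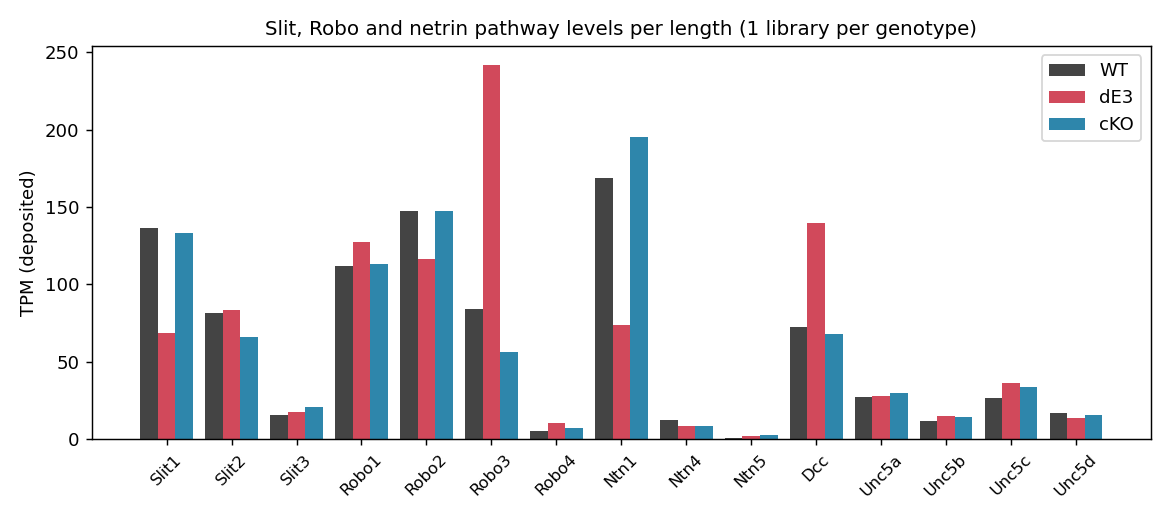
TPM of the Slit, Robo, netrin, Dcc and Unc5 genes in each of the 3 libraries, 1 bar per library. In dE3, Robo3 reaches 242 and Dcc 140 TPM while Ntn1 (73.7) and Slit1 (68.4) are each lower than in WT and cKO.

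The Eph A receptors bind mainly the ephrins A, which are anchored to the membrane by a lipid. Epha5 (chr5:84054761-84417382, minus strand) was the 1 member of this family called lower. It stood at 115 CPM (WT), 54.4 (dE3) and 97.7 (cKO), and dE3 was lower by 2.12 times (2.01 to 2.24). The cKO library was lower than WT by 1.18 times (1.12 to 1.24). Epha4, the receptor with the highest TPM of the family in WT (56.6), stood at 134, 117 and 141 CPM. Epha3 stood at 40.1, 58.7 and 40.0 CPM, which is 1.46 times WT in dE3 (1.36 to 1.57). Epha8 stood at 26.4, 28.9 and 37.7 CPM, with cKO at 1.43 times WT (1.31 to 1.56). Epha7 was level at 56.8, 51.0 and 56.7 CPM, and Epha10 stood at 21.6, 17.5 and 19.1 and Epha6 at 8.14, 6.39 and 9.93. Epha1 and Epha2, known mostly from epithelia, were the least abundant. Epha1 had 18, 52 and 22 counts, a ratio of 2.63 in dE3 (1.52 to 4.78). Epha2 stood at 3.19, 5.25 and 5.66 CPM, with ratios of 1.64 in dE3 (1.28 to 2.12) and 1.77 in cKO (1.39 to 2.28). Of the exonic bases of Epha1, 6.01% are shared with Zyx on the opposite strand, which had 1635, 2330 and 2080 counts.

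Of the Eph B receptors, which bind the transmembrane ephrins B, Ephb4 alone was called. Ephb4 (chr5:137350109-137378669, plus strand) is known from veins. It stood at 22.1 CPM (WT), 57.4 (dE3) and 36.1 (cKO). WT was lowest, dE3 was at 2.598 times WT (2.38 to 2.83), and cKO lay between them at 1.63 times WT (1.49 to 1.80). Ephb2, the family's most abundant receptor in WT at 69.4 TPM, stood at 281, 258 and 296 CPM. Ephb1 stood at 121, 85.9 and 131 CPM, lower in dE3 by 1.40 times (1.34 to 1.47). Ephb3 stood at 47.4, 37.6 and 49.1 CPM. Ephb6, whose kinase domain lacks activity, was level at 60.8, 63.2 and 62.0.

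Of the ephrins, Efna4 alone was called. Efna4 (chr3:89333390-89338028, minus strand) stood at 5.60 CPM (WT), 16.1 (dE3) and 8.54 (cKO), from 179, 565 and 282 counts. Its ratio in dE3, 2.88 (2.43 to 3.42), was the largest of the 37 genes in that comparison, and cKO was at 1.52 times WT (1.26 to 1.85). An antisense gene on the opposite strand, 4731419I09Rik, shares 10.5% of its exonic bases and had 57, 97 and 53 counts. Its neighbours on chromosome 3, Efna3 and Efna1, were not called. Efna3, the most abundant ephrin A in WT (90.8 TPM), stood at 82.6, 78.4 and 87.3 CPM, and Efna1 at 4.69, 5.28 and 6.45. Efna2 stood at 47.6, 40.5 and 44.8 CPM and Efna5 at 46.1, 47.6 and 48.8. Among the ephrins B, Efnb1 stood at 66.1, 90.5 and 87.5 CPM, at 1.37 (1.30 to 1.45) and 1.32 (1.25 to 1.40) times WT. Efnb2, the arterial partner of Ephb4, was near level at 121, 129 and 128 CPM, as was the midline ligand Efnb3, the most abundant ephrin B in WT (131 TPM), at 170, 174 and 177.

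**Figure D4:**
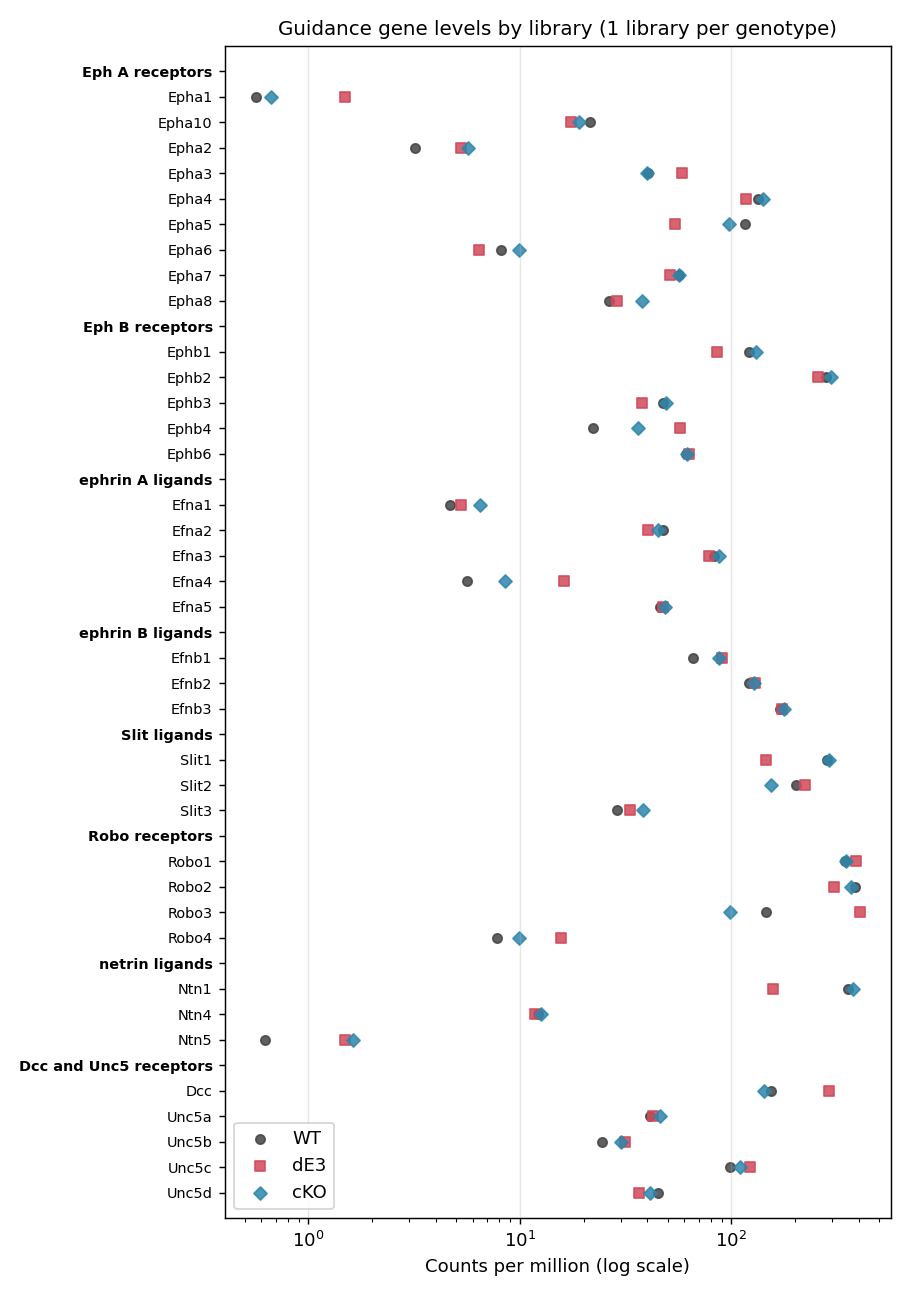
CPM of the 37 genes in the WT, dE3 and cKO libraries on a log axis, by family, 1 point per library. The points of most genes lie close together, with the dE3 point apart for Robo3 (406 against 146 in WT), Dcc (289 against 153), Ntn1 (157 against 356), Slit1 (145 against 284) and Epha5 (54.4 against 115).

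Markers of other tissues differed between the libraries, and are given beside the members known from vessels or epithelia (Robo4, Ephb4, Epha1 and Epha2) and the others called higher at low levels (Efna4 and Ntn5). Of 12 cartilage markers, 12 were called higher in dE3 and 10 in cKO, with summed levels of 159 CPM (WT), 941 (dE3) and 431 (cKO). Of 13 measured skeletal muscle markers, 13 and 11 were called higher (16.2, 214 and 56.9 CPM, with 2 of the 14 listed at 0 counts in WT). Of 10 epidermis markers, 8 and 2 were called higher (13.0, 34.5 and 16.0 CPM, with 1, Krt8, at 0 counts in WT). Of 14 markers of meninges and mesenchyme, 4 and 5 were called higher (767, 1392 and 1674 CPM). Of 9 pericyte and smooth muscle markers, 1 and 3 were called higher (184, 252 and 230 CPM). Of 9 endothelial markers, 0 were called in either mutant, with summed levels of 241, 270 and 350 CPM and medians of 0.23 and 0.46. The log2 ratios of the endothelial markers ran from -0.66 to 0.54 in dE3 and from 0.22 to 0.83 in cKO. The part of these tissues in the members' values was not tested. Of 9 dorsal root ganglion neuron markers, 0 were called in dE3 and 2 were called higher in cKO, and 5 were called lower in dE3 against cKO. Their summed levels were 210.1, 162 and 348 CPM, and their log2 ratios in cKO ran from 0.22 to 1.17 with a median of 0.77. Of 8 macrophage and 6 Schwann cell and neural crest markers, 0 were called in either mutant.

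Other genes of these pathways were described from lists of partners and transducers. Of 31 partners (co-receptors, other ligands, and proteins that process or sort the receptors), 3 were called higher and 0 lower in dE3, and 0 in either direction in cKO, with medians of -0.12 and 0.09. Ntng2, a membrane-bound relative of the netrins, stood at 6.04, 21.7 and 10.4 CPM. Cxcr4, a chemokine receptor, stood at 27.01, 71.4 and 21.7 CPM. Sdc1, a heparan sulfate proteoglycan, stood at 13.0, 26.4 and 20.9 CPM. Of 38 intracellular transducers, 1 was called higher and 0 lower in dE3, and 0 in cKO, with medians of 0.00 and -0.01. That gene, Dock1, encodes an activator of the GTPase Rac1 and stood at 23.7, 64.3 and 32.2 CPM.

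The transcript table shows how far single transcripts carried these ratios. In Robo3, the 3 transcripts with most counts were all higher in dE3 than in WT: Robo3-202 (protein coding) 2.84 times, Robo3-205 (annotated for nonsense-mediated decay) 2.45 times and Robo3-206 (retained intron) 3.42 times. Robo3-202 held 38.4% (WT), 39.1% (dE3) and 45.95% (cKO) of the gene's counts. Both main transcripts of Dcc were higher in dE3, Dcc-202 by 1.81 times and Dcc-201 by 2.75 times. Both main transcripts of Slit1 were lower in dE3, with ratios of 0.471 (Slit1-201) and 0.534 (Slit1-203). Ntn1-201, which held 97.7% of the counts of Ntn1 in WT, had a ratio of 0.445. In Epha5, the ratio was 0.219 for Epha5-202, 0.258 for Epha5-203, 0.636 for Epha5-201 and 0.718 for Epha5-204. The less abundant Epha5-205 and Epha5-206 were higher in dE3, at 1.63 and 1.36 times WT. Epha5-204 held 12.5% (WT), 19.1% (dE3) and 0% (cKO) of the gene's counts. Without the transcript that differed most, the log2 ratio of Epha5 in dE3 was -0.85, and that of Robo4 was 0.68, and neither gene was then called. For Ntn5 it was 0.58 in dE3 and 0.47 in cKO, likewise uncalled.

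For several members the split of counts between transcripts differed from library to library in ways the gene total does not show. Epha4-205 held 92.9% (WT), 88.0% (dE3) and 3.64% (cKO) of the counts of Epha4, and in cKO Epha4-201 held 86.9%. Ephb4-203 held 89.9%, 90.3% and 0.252%, and Ephb4-201 held 96.7% in cKO. Slit2-216 held 49.3%, 1.28% and 3.13% of the counts of Slit2, and Unc5a-201 held 78.1%, 24.2% and 21.7% of those of Unc5a. Ntn1-202 held 0.228%, 0.0544% and 22.6%. These shares rest on how the quantification divided reads among overlapping transcripts, and with 1 library for each genotype they cannot be told apart from library effects. The library names carry the tag L2 for WT and dE3 and L3 for cKO, so that this tag, too, cannot be told apart from the cKO genotype.

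**Figure D5:**
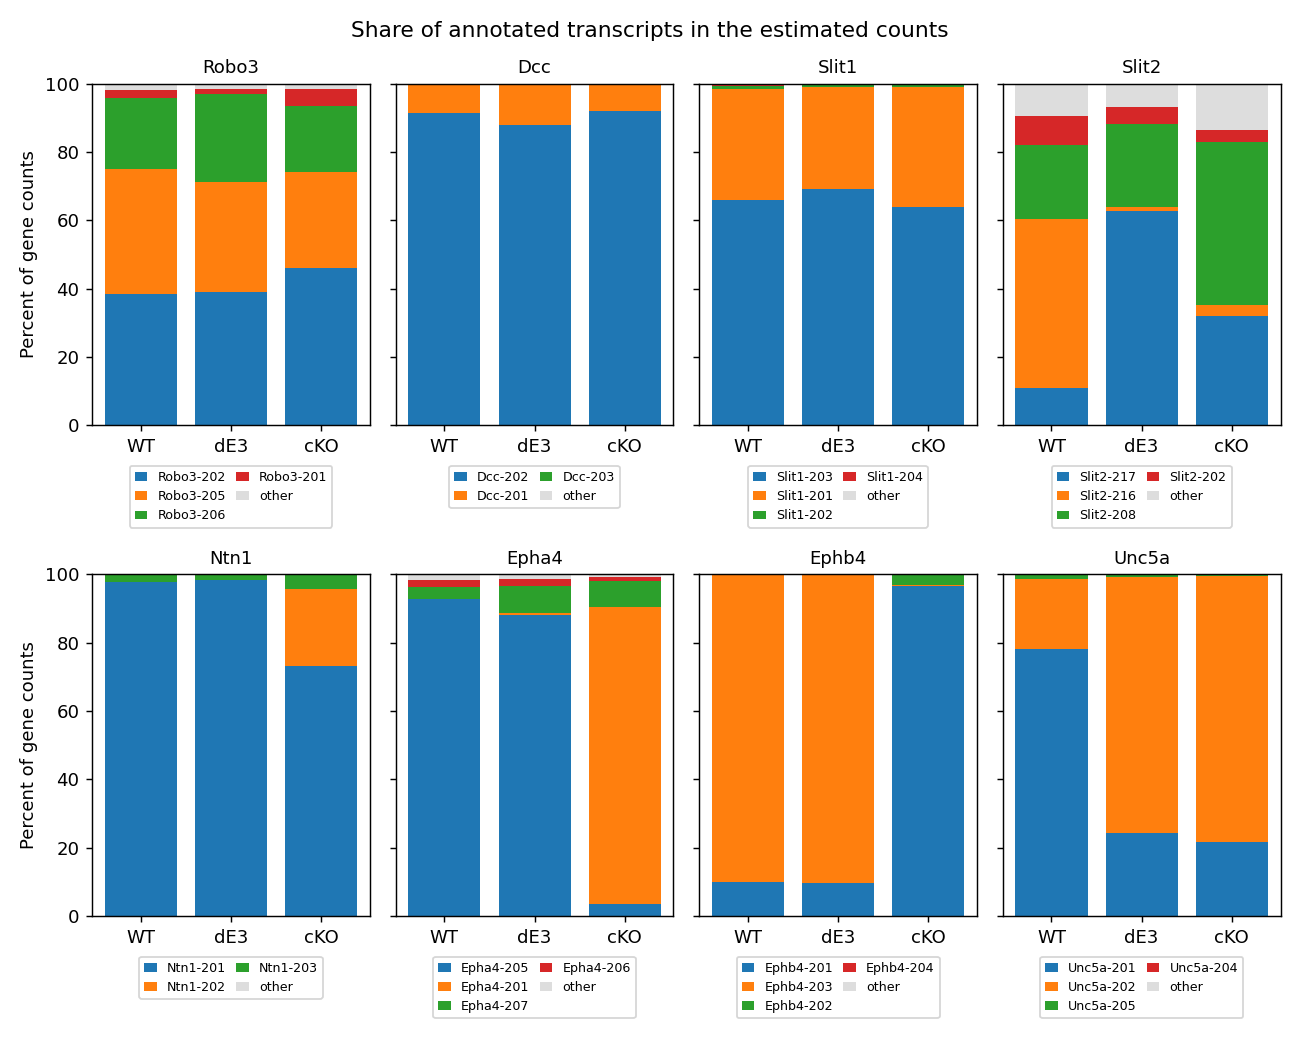
Share of each annotated transcript in the estimated counts of its gene, for 8 guidance genes in the 3 libraries (stacked bars, percent). The shares of Robo3, Dcc and Slit1 are similar across libraries, whereas the leading transcript of Epha4, Ephb4, Slit2 and Unc5a is not the same in every library, as for Ephb4-203 with 90.3% in dE3 and 0.252% in cKO, and Ntn1-201 leads in all 3 but with 73.0% in cKO.

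Positions of the members relative to each other were also read from the table. Robo3 and Robo4 lie end to end on chromosome 9 on opposite strands, 553 bases apart, and both were called higher in dE3, Robo4 at the threshold. Efna1, Efna3 and Efna4 lie in a row on chromosome 3, with gaps of 32.8 kb and 10.4 kb, and Efna4 alone was called. Ephb2 and Epha8 lie 93.4 kb apart on chromosome 4 and were not called.

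Because the alleles act on β-catenin, whose partners of the TCF/LEF family bind DNA, promoter sequences were searched for the motif CTTTGAT and for the shorter form CTTTGNN, which is the core CTTTG followed by any bases and includes every CTTTGAT. Both strands were read in RefSeq windows from 250 bases before to 50 after each start (GRCm38.p6). The windows matched 32 of the 37 members (37 windows, all but Dcc, Efnb3, Ntn1, Slit1 and Unc5d). CTTTGAT was in 0 of the 37 windows, beside 3.73% of all 32851 windows. CTTTGNN was in 8 of the 37 (21.6%), beside 53.7% of all windows. The median GC content of the part before the start was 65.2% for the members and 52.4% for all windows. For the members, bases inside the annotated gene were left out of it, and for all windows the full 250 bases were used. Base composition bears on how often such a motif is met. A match is a description and not a binding site, and the windows hold no enhancers. The stretches before the start of 4 called genes are printed, 5′ to 3′ on the gene's strand and without bases inside the annotated gene, with matches to CTTTGNN on either strand in capitals. They run over chr9:37433247-37433425 (minus strand, Robo3), chr3:89338029-89338278 (minus, Efna4), chr5:137349859-137350108 (plus, Ephb4) and chr5:84417383-84417632 (minus, Epha5).
Robo3: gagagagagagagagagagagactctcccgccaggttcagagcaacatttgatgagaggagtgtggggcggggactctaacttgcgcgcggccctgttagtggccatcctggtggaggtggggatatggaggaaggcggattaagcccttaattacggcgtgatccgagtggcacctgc
Efna4: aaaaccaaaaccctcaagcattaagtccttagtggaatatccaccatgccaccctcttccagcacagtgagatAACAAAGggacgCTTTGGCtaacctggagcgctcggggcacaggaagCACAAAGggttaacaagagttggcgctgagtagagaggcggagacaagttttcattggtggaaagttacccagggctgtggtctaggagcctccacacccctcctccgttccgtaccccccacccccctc
Ephb4: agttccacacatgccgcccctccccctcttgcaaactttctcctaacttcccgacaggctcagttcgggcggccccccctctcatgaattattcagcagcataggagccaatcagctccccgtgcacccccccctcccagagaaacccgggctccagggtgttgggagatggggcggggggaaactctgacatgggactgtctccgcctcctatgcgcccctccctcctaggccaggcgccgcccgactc
Epha5: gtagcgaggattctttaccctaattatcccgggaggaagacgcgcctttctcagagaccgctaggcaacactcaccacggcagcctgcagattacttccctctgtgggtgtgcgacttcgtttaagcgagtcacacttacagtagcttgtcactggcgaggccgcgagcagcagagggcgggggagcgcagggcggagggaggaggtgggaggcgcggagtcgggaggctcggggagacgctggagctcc
The stretch of Efna4 holds 3 matches, and those of Robo3, Ephb4 and Epha5 hold 0.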

How the data were processed

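Total RNA (1 µg) isolated by Trizol from mouse spinal cord went into VAHTS V2 mRNA libraries, per the labels' protocols. CASAVA, Bowtie2 2.3.2 and GRCm38.p6 stand in the submitters' processing notes. With the quantifier, annotation release and strand setting not given in the sources used here, reads of overlapping genes on opposite strands cannot be told apart. The authors deposited estimated counts per gene and transcript, which are whole numbers. TPM values deposited by the authors served for levels between genes and as an alternative. FPKM values deposited by the authors were examined for their unit and not used further.

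Counts were scaled by TMM (edgeR 4.0.16, R 4.3.3) over genes with at least 20 counts in at least 1 library, with factors of 0.993 (WT), 1.01 (dE3) and 0.999 (cKO). Factors from all genes of the table had been computed first. The choice of measured genes was made after both sets of calls had been seen, and 3 members at the threshold differ between them, as the closing section gives. Ratios have exact conditional binomial (Clopper-Pearson) intervals at 95% (scipy 1.17.1). These reads carry no molecular identifiers, so intervals cover counting error only. Genes were called at a ratio of at least 2, and a second threshold of 1.5 is shown. A count of 0 was set to a floor of 3 counts. The procedure was run on simulated counts that varied by counting error only, with known folds larger than the threshold of 2. Such counts meet the interval's own assumption. The run therefore checks the computation and not the calls in these data. Every member called in any comparison is named, with the member of highest TPM in each family. Of the lists, genes called against WT are named for the floor plate, the roof plate and dorsal progenitors, the partners and the transducers. In the other lists they are only counted. Members and gene lists were chosen with earlier results of these data known. Of the gene IDs, 51633 (99.6%) were in GENCODE vM21, which gave transcript types and overlaps, and 33 of the 37 members had identical coordinates there. Alternatives were DESeq2 1.42.0 size factors, total counts, upper quartile scaling, TPM, count minimums of 100 and of none, the threshold of 1.5, and omission of the transcript that differed most.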

Additional observations from a re-analysis of the deposited data

How the results depend on the processing

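No paired analysis was possible because each genotype has 1 library, and for the same reason no library could be left out. The scaling factor moved log2 ratios by at most 0.03, which matters only at the threshold. With TMM factors from all genes of the table, an alternative added after seeing the data, 5 members were called higher in dE3 against WT, since Robo4 (log2 ratio 0.996) was not called. In dE3 against cKO, 2 were then called higher, since Dcc (0.994) was not, and 2 lower, since Slit1 (-1.02) was. DESeq2 size factors and upper quartile scaling also gave 2 lower in dE3 against cKO (Slit1 and Ntn1), as did TPM (Epha5 and Ntn1). The calls of Robo4 in dE3 against WT, and of Dcc and Slit1 in dE3 against cKO, thus depend on the scaling, whereas Robo3, Ephb4, Efna4 and Ntn1 in dE3 against WT were called under every alternative run for them except that Efna4, with 1 annotated transcript, had none to omit. Under TPM, Robo4 in dE3 was not called (0.96), and family medians of dE3 against WT were 0.043 for Slits and -0.56 for netrins, and of dE3 against cKO -0.38 for Eph B receptors, -0.27 for Slits and 0.35 for Robos. With a minimum of 100 counts, 35 members remained and 0 were called higher in cKO against WT, beside 1.84% of all genes at that minimum, and the netrin median was -0.61 in dE3 against WT and -0.67 in dE3 against cKO, since Ntn5 was left out. The members called in dE3 against WT were then 4 higher and 2 lower, beside 4.55% and 1.76% of all genes at that minimum. At a threshold of 1.5, 4 members were higher in cKO against WT, and 6 higher and 5 lower in dE3 against cKO. The motif CTTTGNN was in the promoters of 8 members, and CTTTGAT in 0.

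Omitting the transcript that differed most moved the most values. Members with 1 annotated transcript, or with at most 3 counts left in both libraries, drop out, among them Epha1 in dE3 against WT. In that comparison, 7 of the 30 members left were called higher and 6 lower, beside 8.9% and 6.95% of all genes treated alike. Ephb4 and Robo3 are the higher ones also called with all transcripts. In cKO against WT, 1 of 29 (Efnb1) was called higher and 4 lower, beside 6.83% and 7.76%. In dE3 against cKO, 4 of 30 were called higher and 5 lower, beside 9.39% and 7.51%. Medians of dE3 against WT were then -0.26 for all members, -0.51 for Eph A and -0.30 for Eph B receptors, 1.04 for ephrin A and 0.81 for ephrin B ligands, -1.11 for Slits, 0.68 for Robos and -0.22 for Dcc and Unc5 receptors. The ephrin A value is that of Efna5, 1 of 3 genes, from 12 (WT) and 27 (dE3) counts. The ephrin B value rests on 2 genes, of which Efnb1 had 0 (WT, set to the floor of 3) and 8 (dE3) counts. The minimum of 20 counts was not applied again to what remained. Medians of cKO against WT were -0.046 for all members, -0.10 for Eph A and -0.13 for Eph B receptors, -0.12 for ephrin A and 0.84 for ephrin B ligands, 0.51 for Slits, 0.060 for Robos, -0.29 for netrins and -0.22 for Dcc and Unc5 receptors. Both of these ephrin values rest on 2 genes each, with Efnb1 at 0 (WT) and 13 (cKO) counts. Medians of dE3 against cKO were -0.35 for Eph A and -2.22 for Eph B receptors, 0.86 for ephrin A ligands, -0.91 for Slits, -0.044 for Robos and 0.12 for netrins. That ephrin A value is again the one of Efna5, from 27 (dE3) and 14 (cKO) counts. The cause of these shifts was not tested.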
